A study of Drosophila melanogaster with 12 samples.

Results

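The genes described here encode the proteins that transcribe piRNA clusters in the *Drosophila* germline and carry their transcripts out of the nucleus. They were picked out by gene symbol, from a list made with earlier results of these data known. The genes are *rhi*, *del*, *cuff*, *moon*, *Nxf3*, *CG2678* (the gene of Kipferl, listed as *kipf* in newer annotations) and *Hel25E*. All 7 had a value, among 14303 genes in the deposited table.

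The study asked how ovaries change when D1, a protein that binds satellite DNA, is lost. The *D1* mutant females carried D1 Kyoto, a mutant allele, over D1 Bsc666, a chromosomal deficiency that spans *D1*. The control females carried D1 Kyoto over the balancer chromosome TM6C and so kept a functional copy of *D1*. Both genotypes were also mutant for the checkpoint kinase *chk2*, and the females were 4 days old. There were 3 libraries of rRNA-depleted RNA per genotype, each from about 5 ovaries according to the labels, and 6 small RNA libraries, which were not analysed here. For the RNA libraries, the methods describe that number of ovary pairs rather than of single ovaries. The value used is the mean of the normalised counts over all 6 RNA libraries, both genotypes together, as the authors deposited it. This mean carries no spread between libraries and does not separate mutant from control, so the levels below describe *chk2* mutant ovaries of both *D1* genotypes combined. No test was made between genotypes or between genes, and whether neighbours in an order of levels differ by more than the spread between libraries is unknown here. The depth of each library is unknown too. The targeted gene *D1* had a pooled mean of 6038 normalised counts, which says nothing of either genotype alone.

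PIWI-interacting RNAs (piRNAs) are small RNAs that guide Argonaute proteins of the PIWI clade to transposon transcripts. In the fly germline most of their precursors come from piRNA clusters, heterochromatic stretches rich in transposon remnants that lack ordinary promoters. Rhino, an HP1-like protein, binds a repressive methyl mark of histone H3 at these loci together with Deadlock and Cutoff. Deadlock recruits Moonshiner, a germline relative of a TFIIA subunit, which starts transcription inside the heterochromatin. Cutoff protects the nascent transcripts from termination and splicing. The zinc finger protein Kipferl helps to place Rhino at many of its sites. The RNA helicase Hel25E, known as UAP56, binds the precursors in the nucleus, and Nxf3 exports them.

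Levels of the 7 genes spread widely. In counts per gene, *Hel25E* had the highest mean with 32023 normalised counts and *cuff* the lowest with 757. Longer transcripts collect more reads, so genes were compared on the mean normalised count per kilobase of the longest annotated transcript (hereafter the level per kilobase). On this scale the level was 14107 for *Hel25E*, 2195 for *moon*, 1561 for *del*, 1504 for *Nxf3*, 709 for *rhi*, 584 for *cuff* and 516 for *CG2678*. The level per kilobase of *Hel25E* was 27.3 times that of *CG2678* and 6.43 times that of *moon*, the next in order. The other 6 genes lay within 4.25-fold of each other. Some steps in the order were small, such as the ratio of 1.04 between *del* and *Nxf3* and of 1.13 between *cuff* and *CG2678*. The median protein-coding gene with a mean of at least 10 normalised counts had a level of 735 per kilobase, over 9623 such genes. By level per kilobase, 4 of the 7 genes lay above this median, while *rhi*, *cuff* and *CG2678* lay below it, *rhi* only just. This split depends on the genes included and the length used. *rhi* came to percentile 50.1 by merged exon length and 51.2 with noncoding genes included. With every protein-coding gene above 0, *rhi*, *cuff* and *CG2678* came to percentiles 59.8, 56.7 and 54.9, so that all 7 lay above the median. With a minimum mean of 100, *rhi*, *cuff* and *CG2678* came to 36.9, 32.0 and 29.3, and by coding length to 45.3, 40.0 and 43.1.

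**Figure D1:**
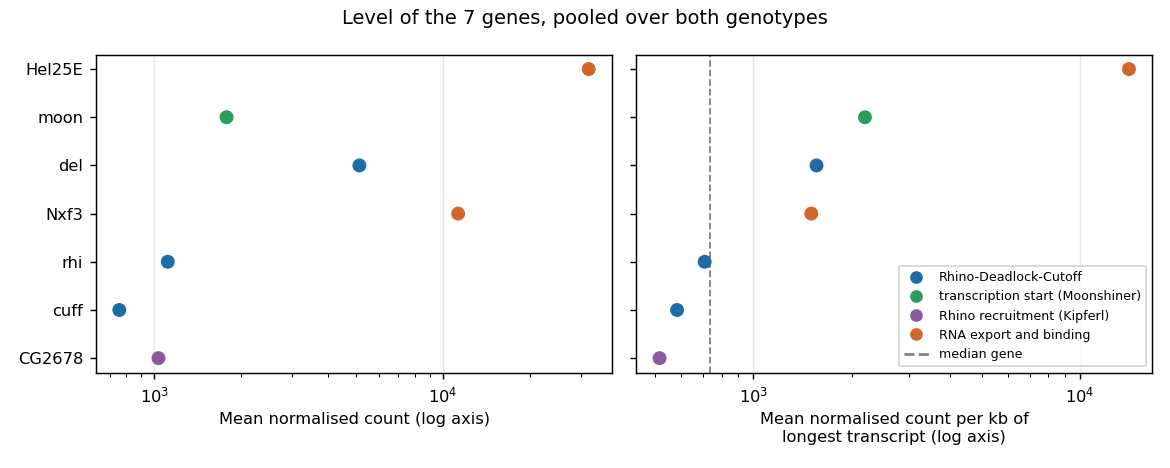
Level of each gene as the mean normalised count (left) and as the mean normalised count per kilobase of its longest transcript (right), both on log axes, with colours for the role of the protein and a dashed line at the median protein-coding gene (735 per kilobase). Each point is 1 pooled mean over 6 libraries with no error available. *Hel25E* stands at 14107 per kilobase, and *rhi*, *cuff* and *CG2678* lie left of the dashed line.

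Transcripts for the proteins of the Rhino-Deadlock-Cutoff complex were present at unequal levels. *rhi* (FBgn0004400), which encodes the chromatin reader, had a mean of 1114 normalised counts on a transcript of 1570 bases. It lies on chromosome arm 2R from 17628491 to 17633516 on the minus strand. Its span overlaps that of *CG10936* on the same strand, and the genes share no exon base. *del* (FBgn0086251), which encodes the scaffold protein that links Rhino to the other factors, had a mean of 5137 on a transcript of 3292 bases. *del* lies on 2L from 21145137 to 21148546 on the minus strand. *cuff* (FBgn0260932), whose protein protects the nascent transcripts, lies on 2R from 11886067 to 11887603 on the plus strand and had a mean of 757 on a transcript of 1295 bases. Per kilobase, *del* stood at 2.2 times *rhi* and 2.67 times *cuff*, and *rhi* stood at 1.21 times *cuff*. The order of these genes stayed the same when the coding length or all merged exons replaced the longest transcript.

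A neighbouring gene overlaps *cuff* at its end. The last 36 exon bases of *cuff* overlap the last exon of *ERp60*, an abundant gene of the opposite strand with a mean of 36921 normalised counts. These bases are 1.99% of the exon bases of *ERp60*. In proportion to length, that share of the *ERp60* mean would be 736 normalised counts, beside 757 for *cuff* as a whole. Whether the counting separated the strands is not given in the sources used here, and the part of *ERp60* reads in the *cuff* value was not tested. Each level, ratio and place given for *cuff* carries this limit. The spread of levels over the members and the last place of *CG2678* take the *cuff* value as it stands, so they carry it too. *del* overlaps *pths*, also of the opposite strand, by 10 bases, and the same proportion gives 27.4 normalised counts, beside 5137 for *del*. These proportions go by bases alone. Reads that reach into an overlap only in part are left out of them, so neither value is an upper limit.

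Rhino belongs to the HP1 family, and *rhi* had a lower level per kilobase than its broadly expressed relatives. The gene of HP1a, the protein that binds methylated histone H3 throughout pericentric heterochromatin, had a level of 10888, or 15.3 times that of *rhi*. *HP1c* had 2397 and *HP1b* 1529, which is 3.38 and 2.16 times the level of *rhi*. *HP1D3csd*, another relative, had a mean of 7.86 normalised counts in all. *HP1e* was listed, but no value was found for it under the name used. Cutoff is related to the decapping enzymes of the Rai1/DXO family. *Rai1* had a level of 1782 per kilobase, 3.05 times that of *cuff*.

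*CG2678* (FBgn0014931) encodes Kipferl, a zinc finger protein with a ZAD domain at its start. The gene lies on 3R from 7913851 to 7916550 on the plus strand, in 3 exons of its longest transcript, with no exon base shared with another gene. Its mean was 1034 normalised counts on a transcript of 2003 bases, and its level per kilobase of 516 was the lowest of the 7. This is 0.728 times the level of *rhi*, whose protein Kipferl binds. By coding length its place changed: *CG2678* then stood at 792 per kilobase of coding sequence and *cuff* at 655, so that *cuff* came last.

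*moon* (FBgn0030373) encodes Moonshiner, the factor that connects Deadlock with the basal transcription machinery. It is the shortest of the 7 genes, a single exon of 811 bases on the X chromosome from 12072008 to 12072818 on the minus strand. The whole gene lies within an intron of *Ten-a* on the opposite strand, and neither *Ten-a* nor a long noncoding RNA that spans the same stretch shares an exon base with it. Its mean was 1780.5 normalised counts. Its level of 2195 per kilobase was the next highest after *Hel25E*. The opening of its coding sequence is shown because it marks the only exon of the gene. It lies at chrX:12072671-12072730 on the minus strand of release 6 of the genome, read from the RefSeq sequence, with the start codon in capitals.
moon: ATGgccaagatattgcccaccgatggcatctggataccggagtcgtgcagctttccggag

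Moonshiner stands in for the large subunit of TFIIA, and it works with the small subunit and with the TBP-related factor Trf2. *TfIIA-L*, the gene of the large subunit, had a level of 4313 per kilobase, 1.96 times that of *moon*. *TfIIA-S*, the gene of the small subunit, had 5860, or 2.67 times that of *moon*. *TfIIA-S-2*, a relative of the small subunit gene, had a mean of 13.97 normalised counts. *Trf2* had a level of 617 per kilobase, so that *moon* stood at 3.56 times *Trf2*. The longest transcript of *Trf2* has 10041 bases, and by coding length the ratio was 2.85. The general TFIIA genes thus had higher levels than *moon* by every length used, and *Trf2* a lower one.

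**Figure D2:**
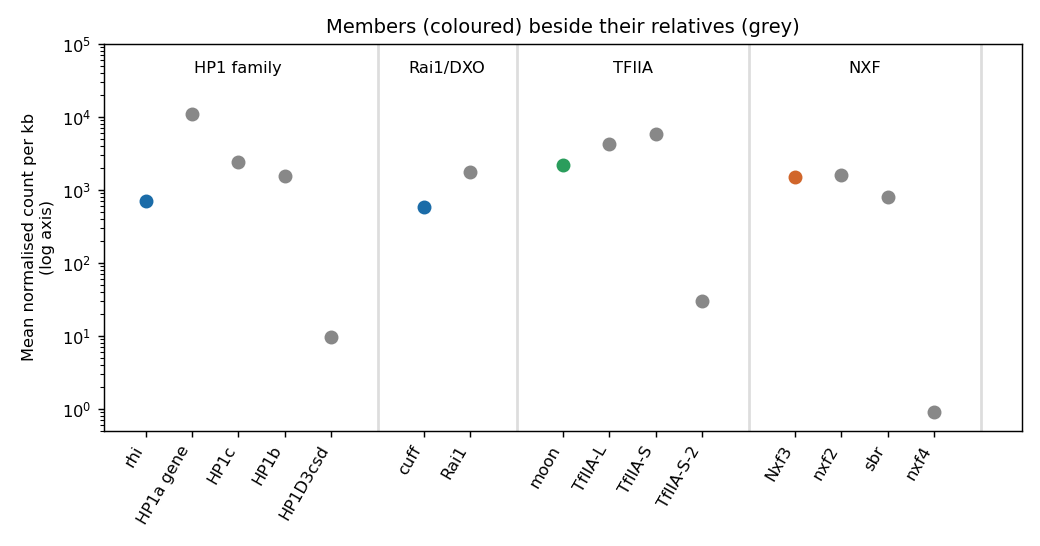
Mean normalised count per kilobase of longest transcript (log axis) of 4 genes in colour, each beside its relatives in grey, with no error available. *rhi* lies at 709 and the gene of HP1a at 10888, *cuff* at 584 and *Rai1* at 1782, *moon* at 2195 and *TfIIA-L* at 4313, and *Nxf3* and *nxf2* at about the same height.

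*Hel25E* (FBgn0014189) encodes a DEAD-box RNA helicase that loads export factors onto mRNA in all cells, and in the germline also binds piRNA precursors at clusters. It lies on 2L from 5539326 to 5542314 on the minus strand, with 7 exons in its longest transcript of 2270 bases. Its mean was 32023 normalised counts. Its level of 14107 per kilobase was 19.2 times that of the median gene and at percentile 97.5, or rank 239 of 9623 genes. The value was close to those of *und* with 14138 and *eIF3e* with 14035, the genes next to it in rank. The start of *Hel25E* is separated by 165 bases from the start of *Lam*, which is transcribed the other way. Promoters were taken as 250 bases before to 50 after the annotated start of each gene, and both strands were searched for the letters TATCGATA, the DNA replication-related element (DRE) common in promoters of housekeeping genes. *Hel25E* was the only one of the 7 genes with a match, at -33 from its start. Of 9609 promoters searched, 12.8% held this motif. A match in 1 of 7 genes is near the share of all promoters. The stretch is shown as the promoter sequence of the member with the highest level. It lies at chr2L:5542315-5542373 on the minus strand of release 6, read from the RefSeq genome, with the motif in capitals.
Hel25E: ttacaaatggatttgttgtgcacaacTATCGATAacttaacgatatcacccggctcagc

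TATAAA, the core of the TATA box, was found in the windows of *Hel25E*, *moon*, *Nxf3* and *cuff*, 4 of 7, and in 44.97% of all promoters. The match nearest to a start was at -82 in *Hel25E*. GAGAG, the core of the sites of GAGA factor, was found in *moon* alone of the 7 and in 29.8% of all promoters. No motif contains another, and a match is a string of letters, not a measured site.

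*Nxf3* (FBgn0263232) encodes the export receptor of piRNA precursors, and its value is tied to that of a neighbour. The gene lies on 3L from 13965203 to 13973067 on the plus strand. In the annotation it shares both ends and the strand with *ssp2*, which encodes a protein of spindle microtubules, and RefSeq describes the locus as a dicistronic gene. Every one of the 4496 exon bases of *ssp2* is also an exon base of *Nxf3*. The exons of *Nxf3* hold a further 3016 bases, or 40.1% of its own, and these include its whole coding sequence of 1848 bases. They form a single stretch that is an intron in *ssp2*. The splice sites at its ends separate the annotated transcripts of the genes, and are shown for that reason on the plus strand of release 6, read from the RefSeq genome. The first bases of the *Nxf3* coding sequence, which are present only in the unspliced form, are shown as well. Capitals mark the GT at the start of the intron, the AG at its end and the start codon. The donor site lies at chr3L:13965616-13965645, the acceptor site at chr3L:13968632-13968661 and the coding start at chr3L:13966648-13966707.
ssp2 donor: agtacaacaacgaggGTaagccttttccac
ssp2 acceptor: tatattttacgaaAGccttcaaaaacaatt
Nxf3 coding start: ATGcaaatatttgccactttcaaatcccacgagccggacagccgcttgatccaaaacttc

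*Nxf3* had a mean of 11296 normalised counts and *ssp2* a mean of 8163, which is 72.3% of the *Nxf3* mean. The difference is 3133 normalised counts. If the counter had credited reads on shared exons alike to both genes, whether in full or in equal parts, these 3133 would be the reads on the 3016 bases that only *Nxf3* has. They would then correspond to a level of 1039 per kilobase, at percentile 58.6 of protein-coding genes. Over its longest transcript of 7512 bases the level was 1504, at percentile 68.5. Over the coding length alone it was 6113, a value that sets all counts of *Nxf3* against 1848 of its 7512 exon bases. The values over the longest transcript and over the bases of *Nxf3* alone lay within 1.5-fold of each other. By the gene models used here *ssp2* has no exon base of its own, so the reads counted for it lay on exons shared with *Nxf3*. How the counter divided such reads between the genes is not given in the sources used here. The part of *ssp2* in the *Nxf3* value was therefore not tested beyond this.

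**Figure D3:**
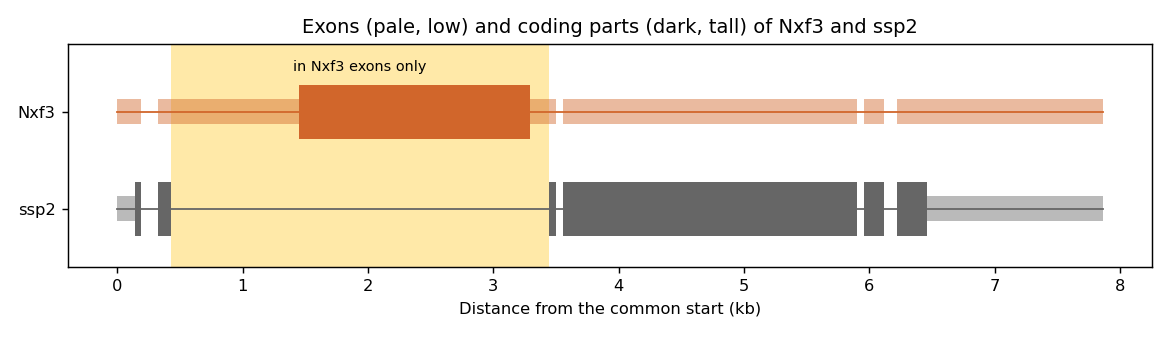
Exons (pale, low boxes) and coding parts (dark, tall boxes) of *Nxf3* and *ssp2*, drawn to scale as distance in kilobases from their common start, each gene with all its annotated transcripts merged. The shaded stretch of 3016 bases is exon only in *Nxf3* and holds the whole *Nxf3* coding sequence.

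Among the nuclear export factors, *Nxf3* was close to *nxf2* over the longest transcript. *nxf2*, which acts in transposon silencing by Piwi rather than in export, had a level of 1580 per kilobase, and *Nxf3* stood at 0.952 times this. By coding length the order turned, and *Nxf3* stood at 3.41 times *nxf2*. *sbr*, the gene of the general mRNA export receptor Nxf1, had a level of 801 per kilobase, and *Nxf3* stood at 1.88 times *sbr*. With the estimate of 1039 for *Nxf3*, it lay below *nxf2* and above *sbr*. *nxf4* had a mean of 1.01 normalised counts. Genes of the proteins that help to export precursors were all found, 9 of 9, with a median of 1669 per kilobase, and 8 of them lay above the median gene. *Nxt1*, the small partner subunit of export receptors, was the highest with 6697, and *emb*, the exportin Crm1, had 2641. *boot*, whose protein Bootlegger binds Nxf3, had 3785. The subunits of the THO complex, which works with Hel25E, ranged from 656 for *thoc6* to 1810 for *thoc5*. The level of *Hel25E* was thus 2.11 times that of *Nxt1*, the highest of these partners.

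Partners in transcription were measured as well. *TfIIA-S*, *Trf2*, *CtBP*, *egg* and *mael* had a median level of 2649 per kilobase, and 3 of the 5 lay above the median gene. *egg*, which encodes the histone methyltransferase that makes the mark bound by Rhino, had a level of 708 per kilobase, next to 709 for *rhi*. *CtBP*, a co-repressor, had 3036, and *mael*, a factor of transcriptional silencing, 2649.

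Beside the other branches of the pathway, the 7 genes had a lower median level. It was 1504 per kilobase, at percentile 68.5. The median was 2428 for 11 genes of nuage and ping-pong amplification and 1706 for 10 genes of piRNA biogenesis. For the 10 of 11 genes of nuclear silencing with a known length it was 2603. The median of the 7 genes is the value of *Nxf3*, which may hold reads of *ssp2*. With the estimate of 1039 for *Nxf3*, this median would be 1039, at percentile 58.6. With *Nxf3* left out, the median percentile of the members was 59.4, and with *Hel25E* left out 58.8. In nuage, *AGO3*, an Argonaute of the ping-pong cycle, had the highest level with 5126 and *qin*, a Tudor protein, the lowest with 493. In nuclear silencing, the gene of HP1a had the highest level with 10888 and *egg* the lowest with 708. *piwi*, whose protein enters the nucleus with its piRNA, had 6064. In biogenesis, *nbr*, which trims the ends of piRNAs, had 4166 and *fs(1)Yb*, a gene of the somatic follicle cells, had 111. *rhi*, *cuff* and *CG2678* therefore lay near the lower end of these lists, and only *qin* and *fs(1)Yb* were lower than *CG2678*. The lists were chosen with earlier results of these data known and share genes in part, such as *nxf2*, *Nxt1*, *egg* and *vas*, so these values describe the lists and no more.

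**Figure D4:**
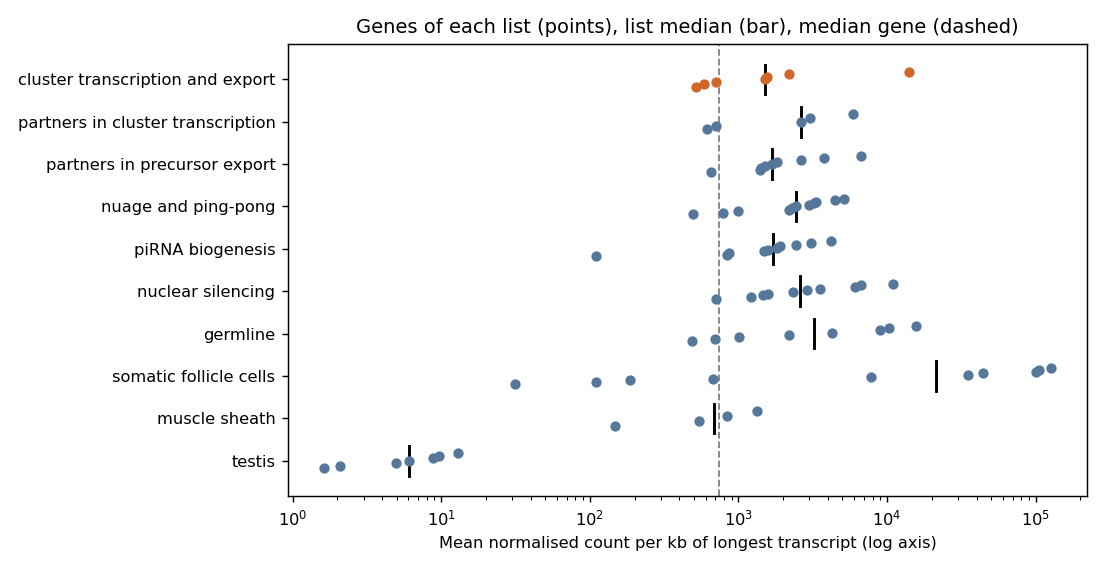
Mean normalised count per kilobase of longest transcript (log axis) of each gene in 10 lists, with a bar at the list median and a dashed line at the median protein-coding gene (735). The median of the 7 genes in orange is 1504, beside 2428 for nuage and ping-pong, 1706 for piRNA biogenesis and 2603 for nuclear silencing, and the testis genes lie between 1.64 and 12.9.

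Set against all protein-coding genes with a mean of at least 10, the percentile of the level per kilobase was 97.5 for *Hel25E*, 79.2 for *moon*, 69.6 for *del*, 68.5 for *Nxf3*, 49.2 for *rhi*, 45.2 for *cuff* and 43.0 for *CG2678*. The genes next above and below in level were *Spec2* and *EndoGI* beside *moon*, *Dsor1* and *Taf2* beside *rhi*, and *Phax* and *Lsm11* beside *cuff*. *del* stood between *CG5292* and *COX5A*, *Nxf3* between *car* and *alpha-Man-Ia*, and *CG2678* between *CG12877* and *CG9117*. This is likeness in 1 pooled level only, since no pattern over libraries was used.

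**Figure D5:**
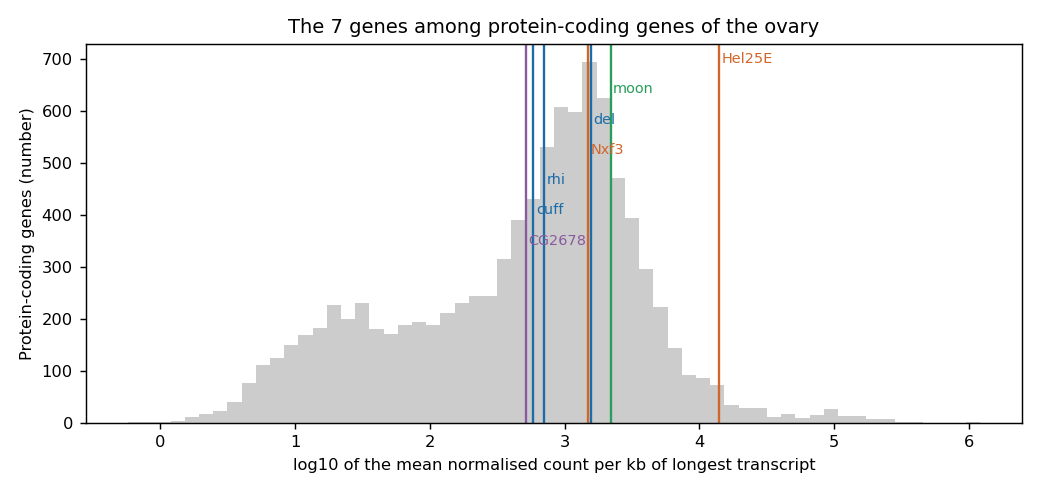
Number of protein-coding genes by log10 of the mean normalised count per kilobase of longest transcript (grey bars, 9623 genes with a mean of at least 10), with a vertical line for each of the 7 genes. *CG2678*, *cuff* and *rhi* lie near the middle, *Nxf3*, *del* and *moon* in the upper part of the main peak, and *Hel25E* in the upper tail at percentile 97.5.

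The 7 genes lie on 5 chromosome arms and do not form a group by position. Although several of their proteins act in heterochromatin, none of the genes lay in a stretch dense in annotated mobile elements. Other repeats, such as satellite DNA, were not counted. Mobile elements of the RefSeq annotation covered 3.86% of the sequence around *del*, counted 100 kb either way from the middle of the gene, 2.27% around *moon*, 1.34% around *CG2678* and under 0.1% around *Hel25E*, *Nxf3*, *rhi* and *cuff*. The median over protein-coding genes was 2.64%, with a 90th percentile of 8.55%. In *cuff* the cover was 0, and *del*, with the most, stood at percentile 63.5. The genes differ in structure too, from the single exon of *moon* to the 7 exons of *Hel25E*. The noncoding share of the longest transcript was 10.5% in *del*, 10.8% in *cuff*, 19.9% in *rhi*, 34.8% in *CG2678*, 36.0% in *moon* and 43.8% in *Hel25E*. It was 75.4% in *Nxf3*, which shares 59.9% of its exon bases with *ssp2*.

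The labels give ovaries as the tissue and germline cell as the cell type, while the series description mentions testes. Genes of the germline were present, 8 of 8, with a median level of 3207 per kilobase. They ranged from 486 for *grk* to 15548 for *nos*, and 6 of the 8 lay above the median gene. Genes of the somatic follicle cells were present as well, 10 of 10, from 31.2 for *br* to 126981 for the chorion gene *Cp36*, so RNA of follicle cells was part of these libraries beside that of the germline. The 4 genes of the muscle sheath ranged from 148 to 1341. Of 8 testis genes listed, 7 were found, with means between 2.53 and 21.0 normalised counts. Their levels per kilobase were at most 12.9, below every germline and follicle cell gene listed. In bulk tissue, fewer germline cells and less RNA per germline cell cannot be told apart, and each level above is an average over all cells of the ovary.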

How the data were processed

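RNA was sequenced from ovaries of *D1* mutant and control females in a *chk2* mutant background. According to the paper's methods and the submitters' processing notes, the authors trimmed the reads with BBTools, aligned them with STAR to BDGP6.32, counted them on genes and transposons with TEtranscripts and fitted DESeq2 1.37.4. Counting mode, strand setting and the gene models used for counting are not given in the sources used here. The deposited signal is the mean of the counts over all 6 libraries after division by the authors' size factors, pooled over both genotypes.

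The other columns of the deposited table hold the authors' comparison of mutant with control (log2 fold change, standard error, Wald statistic, p-values and marks of changed genes). They were not used, so no test between genotypes was made here. Of 18049 rows, 9 without a name and 1 repeated gene were left out. The small RNA libraries were not analysed here.

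Positions and lengths came from Ensembl release 115 (assembly BDGP6.54), matched by FlyBase identifier for 14241 of 14303 genes, and bases from the RefSeq genome of release 6, the same genome release as the authors' build. The gene models used here are newer than BDGP6.32, so lengths and overlaps may differ from those behind the counts. The mean was divided by the longest transcript in kilobases. Percentiles were taken over protein-coding genes with a mean of at least 10, with Python 3.11.15 and pandas 2.3.3, and the percentile step was tested on simulated data. Named were the 7 genes, the genes of fixed lists and the genes next in rank. The members and lists were chosen with earlier results of these data known. Alternatives were coding or merged exon length, no length, other minimum means, noncoding genes included, and, added after seeing the data, single members left out and an estimate of *Nxf3* without *ssp2*.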

Additional observations from a re-analysis of the deposited data

How the results depend on the processing

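The ratio of the highest to the lowest of the 7 genes was 27.3 per kilobase and became 42.3 when the deposited mean was used without length. The median percentile of the 7 genes was 68.5, set by *Nxf3*. It was 61.3 by coding length, 52.7 without length, 75.1 with every protein-coding gene above 0 and 60.9 with a minimum mean of 100. With single genes left out, a choice made after seeing the data, it was 58.8 without *Hel25E* and 59.4 without *Nxf3*. *Hel25E* came first under each length tried. Merged exons in place of the longest transcript changed no place in the order. By coding length, *Nxf3* moved from place 4 to place 2, *cuff* came last in place of *CG2678*, and *Nxf3* stood at 3.41 times *nxf2* instead of 0.952 times. Of the exon bases of *Nxf3*, 59.9% are shared with *ssp2*. *cuff* overlaps *ERp60*, whose share in proportion to length would be 736 normalised counts, beside 757 for *cuff* as a whole. The ratio of the highest to the lowest gene takes the *cuff* value as it stands. Leaving out single libraries and fitting the replicate numbers was not possible, since the pooled mean holds no value per library. No paired analysis was possible because the result comes from no test. Differences between genes have no error here, and the order of genes within small ratios cannot be read as a difference in level.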
